A study of Mus musculus with 2 samples.

Results

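Fibrillar and associated collagens were measured as a set of 10 listed genes among the 32285 genes of the counts. The genes were taken by symbol, and all 10 had at least 20 UMIs in the retained nuclei of each library. The set holds the fibrillar collagens Col1a1, Col1a2, Col3a1, Col5a1, Col5a2 and Col5a3, the fibril-associated collagens Col12a1 and Col14a1, the beaded filament collagen Col6a3 and the network-forming collagen Col8a1. Their UMIs (unique molecular identifiers, each counting 1 captured RNA molecule) were summed over populations of nuclei and divided by all UMIs of the population to give a level in UMIs per 1000000 (CPM).

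The counts came from 2 single-nucleus RNAseq libraries of the periosteum and hematoma or callus of the injured tibia of C57BL6 mice. Each was made from nuclei pooled from 3 or 4 animals, 10 to 14 weeks old. The study mixed both sexes in its experimental groups, and its text does not give the sexes of each pool. The first library was taken at day 1 post-fracture, after an open and non-stabilized tibial fracture. The other was taken at day 5 post-MTI (musculoskeletal traumatic injury), in which the same fracture was joined by mechanical compression of the muscles around it. Day and injury differed together and each had 1 library, so the libraries were not compared, no test was possible, and every interval given is an exact 95% interval that covers counting error only. Pooled animals carry no label that tells them apart, and nuclei are not replicates. Nuclei hold nascent and unspliced RNA, and intronic reads were counted. A level here is therefore nuclear RNA and says nothing of collagen protein in the matrix. The day 1 library held 9389014 UMIs over 48987 barcodes, of which 2405 were retained at a median of 409 UMIs. The day 5 library held 5899407 UMIs over 1446 barcodes, of which 1127 were retained at a median of 2364 UMIs. The libraries shared 33 barcode sequences, 2.28% of the day 5 barcodes.

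Collagens are the main structural proteins of connective tissue. Each molecule is a triple helix of alpha chains, and type I collagen, the bulk of bone and fibrous tissue, is built from the products of Col1a1 and Col1a2. Type III collagen, from Col3a1, is abundant in early repair tissue, and the type V chains nucleate fibrils and limit their width. Col12a1 and Col14a1 encode chains that sit on the surface of fibrils. Col6a3 encodes a chain of the beaded filaments around cells, and Col8a1 a short chain that assembles into networks and is known from vessel walls and basement membranes. After fracture, the periosteum supplies the progenitors of the callus, and their fibrous matrix precedes cartilage and bone.

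The upstream sequence of members was taken from RefSeq (build GRCm38.p6, the build of the counts) to show which common promoter motifs stand before the starts of genes with a shared pattern over populations. A promoter entry was found for 6 of the 10 members, Col1a2, Col3a1, Col5a1, Col5a3, Col6a3 and Col8a1. The 250 bases before the start were searched on both strands for a TATA element, with the letters TATAAA, for the CCAAT box under that name, and for a GC box, with the letters GGGCGG. The bases of a match are in capitals, also where it lies on the other strand. Shown are Col3a1, with a match of TATAAA, Col8a1, with the most matches of GGGCGG, and Col5a3, with a match of CCAAT beside those of GGGCGG. The window of Col3a1 is chr1:45311288-45311537 on the plus strand, that of Col5a3 is chr9:20815068-20815317 on the minus strand, and that of Col8a1 is chr16:57754738-57754987 on the minus strand, each read 5′ to 3′ along the gene and free of annotated exons.
Col3a1: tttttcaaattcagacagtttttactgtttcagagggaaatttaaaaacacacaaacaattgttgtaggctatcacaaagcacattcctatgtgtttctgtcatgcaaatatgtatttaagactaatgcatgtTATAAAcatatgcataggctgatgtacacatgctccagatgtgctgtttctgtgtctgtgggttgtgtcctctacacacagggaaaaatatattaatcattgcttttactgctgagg
Col5a3: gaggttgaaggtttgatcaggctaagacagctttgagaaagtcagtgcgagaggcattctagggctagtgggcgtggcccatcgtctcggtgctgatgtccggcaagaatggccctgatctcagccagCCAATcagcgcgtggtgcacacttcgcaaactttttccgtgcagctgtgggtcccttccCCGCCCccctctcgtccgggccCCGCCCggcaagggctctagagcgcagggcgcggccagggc
Col8a1: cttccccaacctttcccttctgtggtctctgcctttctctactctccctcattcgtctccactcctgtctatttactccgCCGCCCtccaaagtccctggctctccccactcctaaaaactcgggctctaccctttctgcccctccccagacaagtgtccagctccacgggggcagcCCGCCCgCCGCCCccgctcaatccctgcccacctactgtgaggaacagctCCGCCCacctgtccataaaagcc
The Col3a1 window held its TATAAA 117 bases before the start, and none of the other 5 member windows held one. A TATAAA was found in 12.4% of the 32851 promoter entries of all genes. The Col1a2 window (chr6:4505368-4505617, plus strand) lies before the RefSeq start but inside the longer GENCODE gene and overlaps its exon, so its sequence is not shown. CCAAT was found in 2 of the 6 member windows, 109 bases before the RefSeq start of Col1a2 and 122 bases before that of Col5a3, against 33.8% of all entries. GGGCGG was found in 4 of the 6 (Col1a2, Col5a1, Col5a3 and Col8a1), with 4 matches in Col8a1, against 32.7% of all entries. The window of Col6a3 held none of the 3 motifs. These are matches of letters and were not tested for binding.

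In the genome, the members lie on 7 chromosomes. Col3a1 (chr1:45311538-45349706, plus strand) and Col5a2 (chr1:45374321-45503282, minus strand) are neighbours on chromosome 1, where Col6a3 (chr1:90765923-90843971, minus strand) also lies. Col1a1 spans chr11:94936224-94953042 on the plus strand and Col1a2 chr6:4504814-4541544 on the plus strand. Col5a1 spans chr2:27886425-28039514 (plus strand), Col5a3 chr9:20770050-20815067 and Col12a1 chr9:79598991-79718831 (both minus strand), Col8a1 chr16:57624258-57754737 (minus strand) and Col14a1 chr15:55307750-55520803 (plus strand). In the GENCODE annotation, 8 of the 10 genes overlap at least 1 other annotated gene, and the exceptions are Col1a1 and Col8a1. The overlapping genes are noncoding or predicted genes such as Gm43921 within Col1a2 and Gm47302 within Col3a1, both on the same strand as their host, and UMIs of such pairs may be split.

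At day 5 post-MTI, all 10 collagens were concentrated in 1 population of nuclei. This population, called skeletal lineage-like, was clustered and named without any collagen, from markers such as Prrx1, Pdgfra, Runx2 and Postn. It held 176 of the 1127 nuclei (15.6%) and 23.7% of the UMIs, but 90.4% (interval 90.0% to 90.8%) of the 18596 member UMIs. The summed level of the 10 members was 16350 CPM (16100 to 16600) in these nuclei and 540 CPM in the other 951 nuclei, a ratio of 30.3 (28.8 to 31.8). As a mean of the nuclei's own CPM the ratio was 14.7, and with nuclei assigned one by one from marker UMIs it was 6.52. All 20 skeletal lineage markers were detected there, at a summed 6743 CPM against 409 CPM in the other nuclei. Of the markers of other cells, the macrophage, endothelial and myogenic lists were lower in these nuclei than in the rest (210 against 2224 CPM, 112 against 474 CPM and 107 against 12690 CPM). The pericyte and smooth muscle list (526 against 168 CPM), the monocyte list (1.60-fold, against 313 CPM in the rest) and the 3 tenocyte markers (124.5 against 5.74 CPM) were higher. The Schwann list was at 126.5 against 113 CPM, and the part of such cells in the collagen level was not tested.

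The chains of type I and type III collagen make up the core of most fibrils. In the skeletal lineage Col1a1 was measured at 2159 CPM (2071 to 2251), against 101.5 CPM in the other nuclei, a ratio of 21.3 (18.9 to 23.9). Col1a2 was measured at 3872 CPM (3753 to 3995) against 113 CPM, a ratio of 34.3 (30.8 to 38.2). Col3a1 stood at 2770 CPM (2669 to 2874) against 76.2 CPM, a ratio of 36.4 (32.0 to 41.5). The interval of the Col1a1 ratio lay below those of Col1a2 and Col3a1.

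Of the type V chains, Col5a2 was measured at 2744 CPM (2644 to 2847) against 94.3 CPM, a ratio of 29.1 (25.9 to 32.8). Col5a1, which encodes its main partner chain, was at 1013 CPM (952 to 1076) against 37.5 CPM, a ratio of 27.0 (22.4 to 32.8). Col5a3, an alternative chain of some type V molecules, was measured at 327 CPM (293 to 364) against 10.6 CPM, a ratio of 30.9 (21.8 to 45.1). The 3 intervals overlapped.

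The collagens that associate with fibrils or surround cells showed both the highest and the lowest ratio. Col12a1 was measured at 1337 CPM (1267 to 1409) against 35.1 CPM, and its ratio of 38.1 (31.5 to 46.5) was the highest of the set. Col14a1, the related gene, was at 301.5 CPM (269 to 337) against 19.3 CPM, and its ratio of 15.6 (11.9 to 20.7) was the lowest. Col6a3 stood at 762 CPM (709 to 817) against 20.2 CPM, a ratio of 37.6 (29.3 to 49.0), and Col8a1 at 1065 CPM (1003 to 1130) against 32.3 CPM, a ratio of 32.9 (27.0 to 40.6).

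All 10 members were thus at least 2-fold higher in skeletal lineage-like nuclei with an interval above 1, where 14.4% of the 12746 genes with at least 20 UMIs passed the same rule. The median ratio was 31.9 over the members and 0.906 over 12429 genes with at least 5 UMIs expected in the smaller population. By ratio the members ranked from place 61 (Col12a1) to place 220 (Col14a1) of the 12746 genes. The population was named from markers that are known to accompany collagen expression, so the direction is not independent of how such nuclei are defined.

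Levels of different genes were listed per kilobase of merged exon and of gene span. A UMI counts a captured molecule and not the bases along it, so neither scale gives the relative abundance of different genes. On the exon scale Col1a1 (329 CPM per kb), Col1a2 (312), Col5a2 (286) and Col3a1 (282) stood above the rest at day 5. Col8a1 (136 CPM per kb), Col5a1 (119), Col12a1 (87.8), Col6a3 (63.7), Col5a3 (48.0) and Col14a1 (43.0) followed. Col1a1 and Col1a2 stood at 2159 and 3872 CPM, and their near-even values per exon kb come from division by 6.563 and 12.43 kb. Because introns were counted, long genes such as Col14a1 (213 kb from start to end, against 16.8 kb for Col1a1) may gain UMIs that the exon scale does not remove. Per kb of gene span the order was different, and Col5a2 (21.3 CPM per kb) was far below Col1a1 (128), Col1a2 (105) and Col3a1 (72.6).

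**Figure D1:**
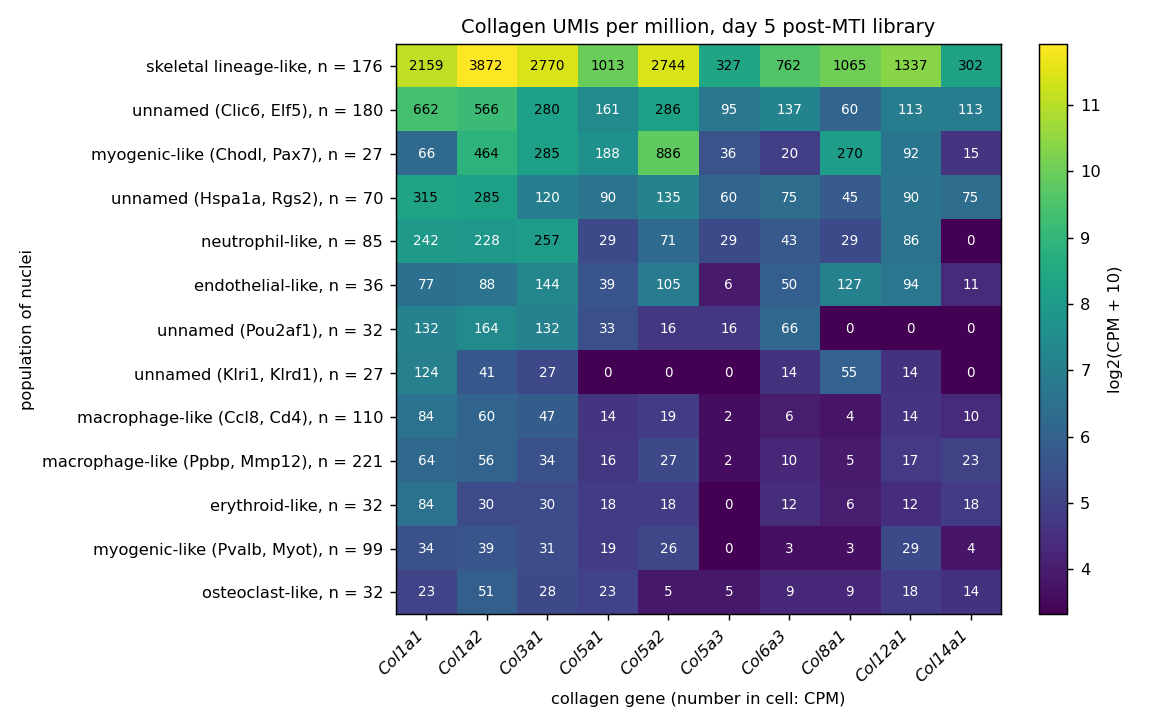
CPM of each collagen (columns, number in the cell) in each population of the day 5 post-MTI library (rows, with the number of nuclei, ordered by the sum of the 10 collagens), coloured by log2(CPM + 10). The skeletal lineage-like row is the highest for all 10 collagens, and the unnamed nuclei led by Clic6 and Elf5 and the myogenic-like nuclei led by Chodl and Pax7 follow with summed levels of 2474 and 2323 CPM.

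Within the skeletal lineage-like nuclei the collagens were unevenly spread. The median nucleus had 14450 CPM of the 10 members together, 3077 CPM of Col1a2, 1941 CPM of Col3a1, 1900 CPM of Col5a2 and 1637 CPM of Col1a1. For Col5a3 and Col14a1 the median nucleus had no UMI. The 18 of the 176 nuclei with the most UMIs of a gene held 75.3% of the Col5a3 UMIs, 66.5% of the Col14a1 UMIs and 62.6% of the Col8a1 UMIs, but 43.5% of the Col5a2 UMIs. Single nuclei weighed most for Col8a1 and Col5a3, where the top nucleus held 11.7% and 11.3% of the UMIs. These shares follow both expression and the depth of each nucleus.

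To compare populations of unequal depth, each nucleus was thinned at random to 500 UMIs in 100 draws. On average 96.8% of the 176 skeletal lineage-like nuclei then still had a UMI of at least 1 member (93.8% to 99.4% over the draws), and 76.0% had UMIs of 3 or more members (71.6% to 80.7%). Among the 331 macrophage-like nuclei, which should lack these collagens and had a similar median depth (3703 against 3943 UMIs), 12.7% had a member UMI (9.37% to 17.5%) and 0.154% had 3 or more. In 1 draw taken gene by gene, Col1a2 was found in 118 skeletal lineage-like nuclei (67.0%, interval 59.6% to 73.9%) and in 9 macrophage-like nuclei (2.72%, 1.25% to 5.10%). Before thinning these shares were 90.9% and 19.3%. Col14a1 was found in 14.8% and 0.604% of the thinned nuclei, and in 34.7% and 6.34% before thinning.

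**Figure D2:**
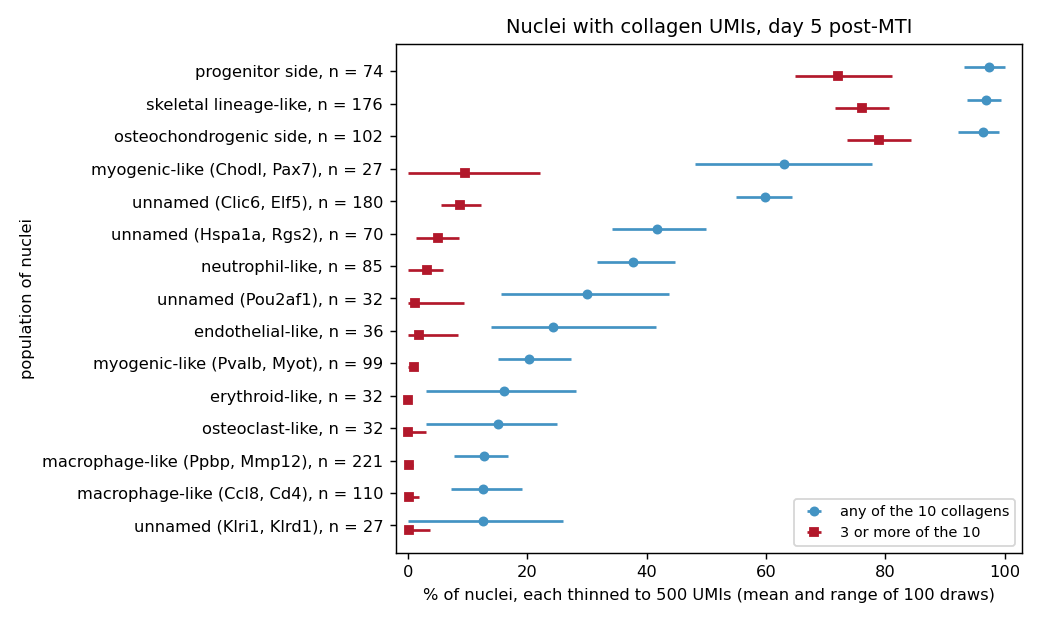
Percentage of nuclei with a UMI of any of the 10 collagens (circles) and with UMIs of 3 or more (squares), after each nucleus was thinned to 500 UMIs, in the populations of the day 5 post-MTI library. Points are the mean and bars the range of 100 draws, n is the number of nuclei, and on average 72.0% to 79.0% of nuclei on the sides of the skeletal lineage have 3 or more collagens, against at most 9.52% in the populations outside it.

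Members also went together from nucleus to nucleus to a limited degree. Over the 124 skeletal lineage-like nuclei with at least 2000 UMIs, Spearman's rho of Col1a1 and Col1a2, the partner chains of type I collagen, was 0.62. The next pairs were Col1a1 with Col5a1 (0.421), Col1a2 with Col5a2 (0.419) and Col3a1 with Col5a2 (0.415), and Col6a3 with Col14a1 had the lowest value (-0.209). All points come from 1 library and sparse counts, and these values are a description.

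Outside the skeletal lineage, the myogenic-like nuclei led by Chodl, Dcx and Pax7, the last a transcription factor of muscle stem cells, had a collagen profile of their own. These 27 nuclei had 456 member UMIs and a summed level of 2323 CPM, 9.04 times (7.86 to 10.4) that of macrophage-like nuclei. Col5a2 had 174 UMIs and stood at 886 CPM, 36.7 times (25.3 to 54.7) the macrophage-like level. Col8a1 stood at 270.0 CPM, 54.3 times (24.6 to 142) the macrophage-like level, but 3 of the 27 nuclei held 71.7% of its UMIs and the median nucleus had none. Col1a2 stood at 463.5 CPM, Col3a1 at 285 CPM and Col5a1 at 188.5 CPM. Col1a1 stayed at 66.2 CPM, and its ratio to the macrophage-like level was 0.933 (0.480 to 1.67). Of the UMIs of both type I chains, Col1a1 made up 12.5% (6.83% to 20.4%) here, 35.8% (34.6% to 37.0%) in skeletal lineage-like and 55.2% (47.7% to 62.6%) in macrophage-like nuclei. Without the nucleus that held the most member UMIs the summed level was 2268 CPM. The myogenic-like nuclei led by Pvalb and Myot, genes of mature fibres, were at 187 CPM, 0.727 times (0.591 to 0.891) the macrophage-like level.

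Endothelial-like nuclei had 134 member UMIs over 36 nuclei and 740 CPM. Of the 9 members with at least 20 UMIs in these and the macrophage-like nuclei, 5 were at least 2-fold higher than in macrophage-like nuclei (Col3a1, Col5a2, Col6a3, Col8a1 and Col12a1), where 14.4% of 8048 genes passed. Col8a1 was at 127 CPM against 4.97 CPM, a ratio of 25.6 (10.6 to 70.6), the largest of them. But 17 of its 23 UMIs (73.9%) came from 1 nucleus, and another nucleus held 46 of the 134 member UMIs. Without the latter the summed level was 518 CPM, and the intervals of Col3a1 (1.53, 0.697 to 3.05) and Col12a1 (2.16, 0.720 to 5.46) held 1.

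Macrophage-like nuclei were at 257 CPM, erythroid-like at 227 CPM and osteoclast-like at 185 CPM. The neutrophil-like nuclei, at 1013 CPM, were 3.94 times (3.01 to 5.09) the macrophage-like level, with a median of only 737 UMIs per nucleus. The unnamed nuclei led by Clic6 and Elf5, 180 nuclei with a median of 685 UMIs, had the next highest sum after the skeletal lineage, 2474 CPM, and their interval overlapped that of the Pax7 nuclei. Of their thinned nuclei, 59.9% had a member UMI on average and 8.72% had 3 or more. The thinned Pax7 nuclei were close to these, at 63.0% and 9.52%. The median mitochondrial share of the Clic6 nuclei was 0.739%, against 0.217% in skeletal lineage-like nuclei. No barcodes of this library serve as a measure of free RNA, and its part in these low-depth populations was not tested. In the order of levels, skeletal lineage-like nuclei were above the next population beyond counting error for each of the 10 members. The population in the next place stood above the one after it in 3 cases. These were Col1a1, where the Clic6 nuclei (662 CPM) stood above the nuclei led by Hspa1a (315 CPM), and Col5a2 and Col8a1, where the Pax7 nuclei did. For the other 7 members that step was within counting error.

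**Figure D3:**
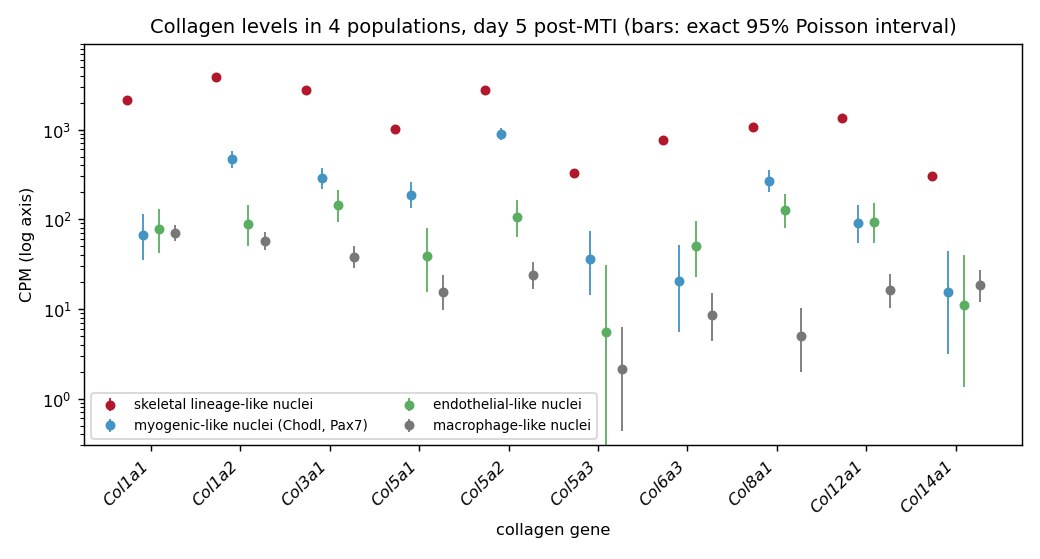
CPM (log axis) of each collagen in 4 populations of the day 5 post-MTI library, with exact 95% Poisson intervals as bars and no point where the count was 0. The skeletal lineage-like points lie above all others, and the Pax7 nuclei come closest for Col5a2 (886 against 2744 CPM) while they are at the macrophage-like level for Col1a1.

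The skeletal lineage-like nuclei split into 2 sides when clustered again without the collagens. The osteochondrogenic side had 102 nuclei at a median of 7827 UMIs. It was marked by genes such as Ibsp, a bone matrix sialoprotein, Sp7, a transcription factor of osteoblasts, and Matn3, a cartilage matrix protein. All osteochondrogenic markers but Matn3, and all 4 progenitor markers, are also in the skeletal lineage list. Runx2 gave 1686 of the 2836 UMIs of the 10 osteochondrogenic markers on the osteochondrogenic side. Postn, among the study's markers of injury-induced fibrogenic cells, was at 2000 CPM on this side and 722 CPM on the progenitor side. Such cells were not named apart from either side. Of the 10 markers, Sox9 was nearly even between the sides (a ratio of 1.23, 0.697 to 2.34). The interval of Fgfr3 held 1 (3.09, 0.997 to 15.5), and Ifitm5 and Bglap had only 3 and 7 UMIs. The progenitor side had 74 nuclei at a median of 1575.5 UMIs and was marked mainly by Dpp4, a marker of fibroblast progenitors. Dpp4 gave 47 of the 72 UMIs of the 4 progenitor markers there, and Ly6a was not higher there (1 UMI, against 7 on the osteochondrogenic side). The progenitor list was at 448 CPM on the progenitor side and 24.2 CPM on the other. The osteochondrogenic list was at 766 CPM on the progenitor side, above the progenitor list, and at 3269 CPM on the other. The 10 collagens together were at 16600 CPM (16330 to 16870) on the osteochondrogenic side and 15010 CPM (14420 to 15630) on the progenitor side, a ratio of 1.11 (1.06 to 1.16), and the median ratio of 5383 genes was also 1.11. The ratios of single members ran from 0.446 to 2.20.

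Col8a1 and Col12a1 were the members most in favour of the osteochondrogenic side. Col8a1 was at 1164 CPM there and 529 CPM on the progenitor side, a ratio of 2.20 (1.76 to 2.78), and Col12a1 at 1442 and 766 CPM, a ratio of 1.88 (1.56 to 2.29). In 1 draw thinned to 500 UMIs, Col8a1 was found in 24.5% (16.5% to 34.0%) of osteochondrogenic and 18.9% (10.75% to 29.7%) of progenitor side nuclei. These intervals overlapped. Those of Col12a1 did not, at 48.0% (38.0% to 58.2%) and 21.6% (12.9% to 32.7%). Col5a2 (2881 and 2005 CPM) had a ratio of 1.44 (1.28 to 1.62), and Col1a2 (4019 and 3083 CPM) one of 1.30. Col1a1 was nearly even at 2208 and 1899 CPM, with a ratio of 1.16 (1.03 to 1.32), and Col5a1 at 1025 and 947 CPM had an interval that held 1 (1.08, 0.91 to 1.30).

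Col14a1 and Col3a1 were higher on the progenitor side. Col14a1 was at 252.5 CPM on the osteochondrogenic side and 567 CPM on the progenitor side, a ratio of 0.446 (0.347 to 0.575). Col3a1, at 2594 and 3724 CPM, had a ratio of 0.697 (0.636 to 0.764). Col5a3 (293 and 511 CPM) and Col6a3 (720.5 and 984 CPM) had ratios of 0.573 and 0.732. But 1 nucleus held 31.7% of the Col5a3 UMIs and 1 held 22.1% of the Col6a3 UMIs of the progenitor side, and both ratios were 1.06 when the nuclei were clustered again without the 2 barcodes marked as doublets. With nuclei assigned one by one they were 2.42 and 1.05. Of the UMIs of both surface collagens, Col12a1 made up 85.1% (83.2% to 86.9%) on the osteochondrogenic and 57.5% (50.5% to 64.2%) on the progenitor side.

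By the 2-fold rule, 1 member was higher on the osteochondrogenic side, against 6.76% of 7236 genes, and 1 was lower, against 4.26%. With 10 members, neither count stands apart from its background. The split itself was not stable. With the resolution doubled only 39 and 6 nuclei had a side, and Col8a1 then turned to 0.526 and Col5a2 to 0.989, while Col5a3 and Col6a3 turned to 2.89 and 5.48. Without the mitochondrial and ribosomal limits Col12a1 turned to 0.972. In the 8 alternatives that gave both sides, Col1a1 and Col1a2 stayed above 1, and Col3a1 and Col14a1 below 1. Those that changed the CPM denominator, took a mean over nuclei or left out the top nucleus kept the main split and cannot test it. The lowest values of Col1a1 (1.08) and Col1a2 (1.078) were not above the median ratio of all genes under the main setting, 1.11.

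**Figure D4:**
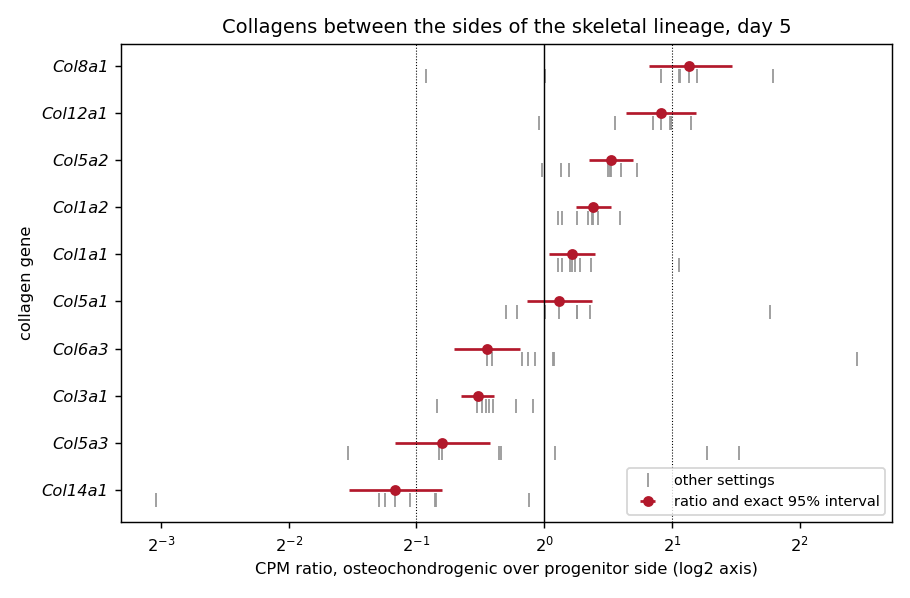
CPM ratio of each collagen between the osteochondrogenic and the progenitor side at day 5 post-MTI (log2 axis), with exact 95% intervals (circles and bars) and the ratios under the other settings (ticks). Col8a1 (2.20) lies highest and Col14a1 (0.446) lowest, the dotted lines mark 2-fold, and the points and ticks of Col5a1, Col5a2, Col5a3, Col6a3, Col8a1 and Col12a1 fall on both sides of 1.

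Genes of the collagen pathway were described from lists by the same rule, skeletal lineage-like against all other nuclei at day 5. Of the other collagens, 30 of 33 had enough UMIs, 17 were at least 2-fold higher and 3 were lower (Col6a6, Col19a1 and Col26a1, where 19.9% of all genes were lower), and the median ratio was 2.93. The highest were Col9a1 (102), Col8a2 (98.2) and Col11a1 (77.8), of which Col9a1 and Col11a1 belong to cartilage fibrils. The lowest were Col19a1 at 0.0393 and Col26a1, with 0 UMIs in skeletal lineage-like nuclei (an upper limit of 2.92 CPM from 3 counts) and 32.0 CPM in the others. Of the genes for biosynthesis and secretion, 14 of 19 were higher and none lower, where 14.4% of all genes were higher, with a median ratio of 4.83. P4ha3, a subunit of prolyl hydroxylase, led at 40.2, followed by Fkbp10, a collagen chaperone, at 15.7 and Creb3l1, a transcription factor of secretory load in osteoblasts, at 11.0. Mia3, which helps load procollagen into transport vesicles, was at 1.58, and Plod1, a lysyl hydroxylase, at 1.15 (0.824 to 1.60).

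All 11 measured genes of procollagen processing and crosslinking were higher by the same rule, with a median ratio of 12.2. For this list and the next 2, the share of all genes that were higher was 14.4%. Adamts2, the protease that removes the amino-terminal propeptide, was at 17.9, Pcolce2, an enhancer of carboxyl-terminal cleavage, at 16.4 and Bmp1, the protease it enhances, at 14.2. Tll1, a relative of Bmp1, was lowest at 2.56. All 10 measured genes for proteoglycans and glycoproteins of the fibril surface were higher, with a median of 23.9, from Abi3bp at 50.4, Ogn at 41.6 and Comp at 36.7 to Fmod at 6.15 and Tnxb at 5.42. Of 9 receptors, 5 were higher, led by Itga10 (20.1), a chondrocyte integrin, Ddr2 (16.3), a collagen receptor kinase, and Itga11 (12.9). The platelet and epithelial integrin Itga2 (0.299) and the leukocyte receptor Lair1 (0.0827) were lower, where 19.9% of all genes were. With 9 receptors, this count of lower genes does not stand apart from that share. Between the sides, 12 of 23 other collagens were higher on the osteochondrogenic side and none lower (against 6.76% and 4.26% of all genes). Among them were Col2a1, Col9a1 and Col11a1 of cartilage and Col10a1 of its hypertrophic form. The median ratio of the 23 was 2.73, where that of the 10 members was 1.12. That side was named from cartilage and bone markers such as Acan, Matn3 and Ibsp, so this direction is not independent of the naming. In the pathway lists without collagens, 18 genes of biosynthesis, 11 of processing, 9 of the fibril surface and 7 receptors had enough UMIs. Of these, P3h2, Adamts3, Loxl1, Ogn, Comp, Itga1 and Itga10 were also at least 2-fold higher on the osteochondrogenic side, against 6.76% of all genes. Tnxb, at 13.8 and 124.5 CPM, and Loxl2, at 40.4 and 87.2 CPM, were at least 2-fold higher on the progenitor side. This count does not stand apart from the 4.26% of all genes. Loxl2 had 14 UMIs there and a ratio of 0.463 (0.243 to 0.931). All of these genes were named after their values were seen.

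Over 14 clusters of the day 5 library, the genes whose log2(CPM + 10) went most closely with the mean of the members, among 6837 genes with at least 100 UMIs and without collagens, were Dnm3os (Pearson's r 0.959), Prickle2 (0.95), Fbn1 (0.948), Tnc (0.948) and Fap (0.944), followed by Itgbl1, Zfp354c, Sec16b, Gpc6 and Has2. Fbn1 encodes fibrillin, the core of microfibrils, and Tnc the matrix glycoprotein tenascin. Fap, a fibroblast surface protease, was a marker used in naming. Of single members, Col1a1 went most with Brinp3 (0.975), Col1a2 with Fap (0.974), Col3a1 with Postn (0.959), Col5a2 with Tnc (0.971) and Col12a1 with Fbn1 (0.957). Between members, r ran from 0.692 for Col8a1 with Col14a1 to 0.981 for Col1a2 with Col5a3. These values rest on the contrast of the skeletal clusters with all others and are a description.

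At day 1 post-fracture the collagens were scarce. The 2405 retained nuclei held 798 member UMIs, 664 CPM, which was less than the 889 CPM (867 to 912) of the 43464 barcodes with fewer than 200 genes. These barcodes served as the level of free RNA, that is, RNA in droplets taken to be without a nucleus. They were set apart by their number of genes alone, so shallow nuclei may be among them. Of the 11 clusters, 9 had a summed level below that of free RNA. For some this was within counting error, such as the unnamed nuclei led by Kif1c, with 59 member UMIs among 68652. The skeletal lineage-like nuclei, 81 in number (3.37%) at a median of 456 UMIs, had 114 member UMIs and 2775 CPM (2289 to 3333), 3.12 times (2.57 to 3.76) the free RNA level and 4.71 times (3.83 to 5.75) that of the other nuclei. The exception besides them was a cluster of 31 myogenic-like nuclei led by Zfp949 and Myh2, with 23 member UMIs and 1611 CPM. Of the retained nuclei, 2018 (83.9%) were in clusters without a name, and these make up most of the other nuclei. The name of the skeletal lineage-like nuclei rests on few molecules. Of 20 markers 12 were detected, with 37 UMIs, 3 passed the naming rule, and the osteochondrogenic markers Sp7, Alpl, Ibsp, Acan and Sox9 were at 0. Their leading genes were Cxcl5, a neutrophil chemokine, Il1r1, Slc1a5 and Pdgfra. Lists of other cells were about as much or more above the other nuclei as the skeletal list, which was at 901 against 379 CPM (2.38-fold). The adipocyte list was at 268 against 69.8 CPM (3.84-fold), the osteoclast list at 73.0 against 26.7 CPM (2.73-fold, from 3 UMIs) and the monocyte list at 681.5 against 290.2 CPM (2.35-fold). The myogenic markers made up 22420 CPM in them and 58180 CPM in the other nuclei. The part of such cells in the collagen level was not tested.

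Of the 10 members, 7 were above free RNA at day 1 (an interval above 1), where 4.13% of 17934 genes passed, or 6.67% of the 8864 with at least 100 UMIs. Col3a1, with 25 UMIs and 608.5 CPM, was 5.53 times (3.55 to 8.22) the free RNA level of 110 CPM. Col1a2, also with 25 UMIs, was 4.07 times (2.62 to 6.04) the free RNA level of 149.5 CPM. Col5a3 (7 UMIs) had the highest ratio, 6.74 (2.67 to 14.2), and Col5a1 (8 UMIs) one of 5.09 (2.17 to 10.2). Col6a3 (9 UMIs) was at 4.42 (2.01 to 8.50), Col8a1 (6 UMIs) at 3.20 (1.16 to 7.03) and Col5a2 (17 UMIs) at 1.77 (1.03 to 2.85). No nucleus held more than 8 of the 114 member UMIs or more than 3 UMIs of a single member, but without the nucleus that held 8 the intervals of Col5a2 and Col8a1 no longer lay above 1 and 5 members remained. With nuclei assigned one by one, 1 member remained (Col1a2).

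Col1a1, Col12a1 and Col14a1 were not above free RNA under the main settings. With a mitochondrial limit of 5% (358 nuclei) or without the limits (421 nuclei), all 10 members were above it. Col1a1 had 11 UMIs and 268 CPM against 143 CPM (1.87, 0.932 to 3.37), Col12a1 had 5 UMIs and 122 CPM against 50.2 CPM (2.42, 0.782 to 5.71), and Col14a1 had 1 UMI against 44.1 CPM (0.552, 0.0139 to 3.10). Of both type I chains, Col1a1 made up 30.6% (16.4% to 48.1%) of the UMIs in skeletal lineage-like nuclei and 48.9% (46.7% to 51.1%) in free RNA. Thinned to 500 UMIs in 100 draws, 58.2% of 32 skeletal lineage-like nuclei (43.8% to 65.6%) had a member UMI on average and 19.8% had 3 or more, against 20.2% and 0.956% of 180 myogenic-like nuclei. Of these, the 14 thinned nuclei of the Zfp949 cluster were as high as the skeletal lineage-like nuclei for any member, at 58.5% (42.9% to 64.3%), and had 3 or more in 11.8%. The remaining skeletal lineage-like nuclei of the 81 were too shallow to be thinned.

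Of each pathway list at day 1, a minority of genes was at least 2-fold above free RNA, where 3.9% of all genes passed and 6 of the 10 members did. The share was above 3.9% in each list, but it rests on few genes with few UMIs. The genes that passed are named with their values known. Of 30 other collagens 3 passed, Col4a2 (6 UMIs), Col16a1 (3 UMIs, a ratio of 5.05, 1.02 to 15.2) and Col27a1 (7 UMIs). Of 19 genes of biosynthesis 3 passed, P4ha1 (9 UMIs), Plod2 (6 UMIs) and Creb3l1 (4 UMIs). Of 12 processing genes, Tll1 (21 UMIs, a ratio of 10.1, 6.18 to 15.7) and Adamts2 (10 UMIs, 4.08, 1.94 to 7.59) passed. Of 11 proteoglycans and glycoproteins, the small proteoglycan Bgn (7 UMIs, 12.8) and Abi3bp (20 UMIs, 7.53) passed, and of 11 receptors Ddr2 (12 UMIs, 6.80) and Mrc2 (15 UMIs, 2.05), a receptor for collagen uptake.

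**Figure D5:**
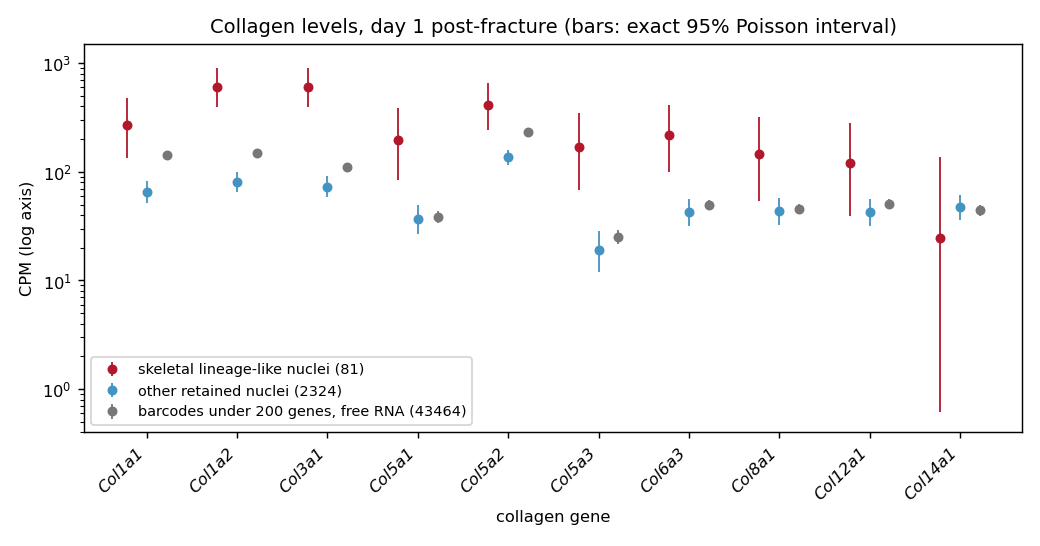
CPM (log axis) of each collagen in the day 1 post-fracture library in skeletal lineage-like nuclei, in all other retained nuclei and in barcodes under 200 genes (free RNA), with exact 95% Poisson intervals as bars and numbers of barcodes in the legend. The skeletal lineage-like points lie above free RNA for every member but Col14a1, with wide intervals that come from 1 to 25 UMIs a gene.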

How the data were processed

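The authors deposited counts, whole UMIs per gene and barcode, from Cell Ranger 7.0.1 on the mm10 build with intronic reads included. A label names a human reference, but all 32285 gene identifiers were of mouse. No normalization precedes the deposited counts. Barcodes with 200 to 5000 genes were retained under the study's limits, below 0.5% mitochondrial and 2.5% ribosomal UMIs at day 1 and below 5% and 2% at day 5. The study also removed myogenic cells, which were kept here, and reports fewer nuclei for both libraries. Whether that removal accounts for the difference was not tested. Scrublet (scanpy 1.11.5) marked 3 of 5523 day 1 and 2 of 1419 day 5 barcodes, a share so low that the caller cannot be relied on. These were kept, so doublets remain, and leaving them out was an alternative.

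Each library was clustered alone in Seurat 5.3.0 (R 4.3.3) with 30 components and resolution 1.0 at day 5, and 20 components and resolution 1.7 at day 1. Collagens and related genes, 101 in all, were left out of clustering and naming. A cluster was named from at least 3 markers of a class at 1.5-fold or more, and the naming thresholds were set after a first clustering had been seen. The study used Col3a1, Col5a1 and Col8a1 among its markers of injury-induced fibrogenic cells, which were not used here. The members and lists were chosen with earlier results of these data known.

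Summed UMIs were divided by all UMIs of a population (CPM) in Python 3.11.15. Intervals are exact at 95% (Poisson for levels, Clopper-Pearson for shares, conditional binomial for ratios, from scipy 1.17.1) and cover counting error only. A gene was called higher or lower at a 2-fold ratio whose interval left out 1, among genes with at least 20 UMIs. Members were all named, and of other lists the genes at the ends of the ratio order were named. With 1 library per condition there was no test between conditions. Promoter entries for Col1a1, Col5a2, Col12a1 and Col14a1 were not used here.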

Additional observations from a re-analysis of the deposited data

Results flagged for a closer look

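These values come from barcodes that no comparison under the main settings used. Alternative settings with looser or no limits took in those that the limits had removed. Each is listed because the interval of its ratio to a reference level lay above 1, so lying above that level is the rule of choice and not a result. At day 5 that reference leaves out the skeletal lineage-like nuclei, while the unused barcodes were not sorted by type. All retained day 5 nuclei together were at 4287 CPM, above the barcodes with fewer than 200 genes and below the other day 5 values given here. At day 5, 271 barcodes removed by the mitochondrial or ribosomal limit had a summed collagen level of 7722 CPM (7544 to 7903), 14.3 times that of the retained nuclei outside the skeletal lineage (540 CPM). The 21 day 5 barcodes with over 5000 genes had 11430 CPM (11160 to 11710), 21.2 times that level. The 27 day 5 barcodes with fewer than 200 genes had 1443 CPM (1081 to 1887), 2.67 times that level. At day 1, 3118 barcodes removed by the limits had 1159 CPM (1102 to 1218), 1.30 times (1.23 to 1.38) the free RNA level of 889 CPM. Why these barcodes lay above their reference levels was not tested.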

How the results depend on the processing

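No paired analysis was possible because each condition had 1 library. The summed level of 16350 CPM in skeletal lineage-like nuclei became 14980 CPM as a mean over nuclei, 18050 CPM without the mitochondrial and ribosomal limits and 15990 CPM when nuclei were assigned one by one from marker UMIs. The day 5 ratio of 30.3 to other nuclei became 34.6 and 36.2 under the stricter and strictest minimum of genes per nucleus, 14.7 as a mean over nuclei, 19.4 without the limits, 6.52 one by one and 39.0 with unnamed nuclei left out (chosen after seeing the data). The cause was not tested. All 10 members stayed at least 2-fold higher in every setting that gave a value. The share of all genes called, 14.4%, was 9.08% with at least 1 UMI and 13.1% with at least 100.

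Between the sides, 2 members were 2-fold different. This became 1 as a mean over nuclei (Col8a1), without the limits (Col5a3), with doublets left out (Col14a1) and centred by the median ratio (Col14a1, chosen after seeing the data), and 6 with the resolution doubled. Ratios that turned were Col12a1 without the limits (0.972), Col5a2 with the resolution doubled (0.989), Col5a3 one by one (2.42), with doublets left out (1.06) and with the resolution doubled (2.89), Col6a3 in the same settings (1.05, 1.06 and 5.48) and Col8a1 with the resolution doubled (0.526). The sides were not both named under the strictest minimum of genes, with collagens kept or with nothing regressed out.

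At day 1, the ratio of 3.12 to free RNA (81 nuclei) became 4.54 with a mitochondrial limit of 5% (358 nuclei). It was 4.46 without the limits (421 nuclei) and 1.87 one by one. Of the 7 members above free RNA, 1 remained one by one (Col1a2, 11 nuclei), where Col5a1, Col5a3 and Col6a3 had 0 UMIs and ratios of 0.0, and 10 were above it in both of the settings with looser limits. The population was not named with at least 300 or 500 genes or with collagens kept, and the day 5 population was not named with a mitochondrial limit of 0.5%. Few UMIs per nucleus limit the day 1 values.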
